A study of Mus musculus with 2 samples.

Results

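Heat shock chaperones were followed in the immune cells of B16-OVA melanomas from mice labelled PBS or creatine. The set held 8 genes of the 31053 in the count tables: the inducible Hsp70 genes Hspa1a and Hspa1b, and 6 genes that resting cells also express, Dnajb1, Hsph1, Hsp90aa1, Hspa8, Hspd1 and Hspe1. They were selected on their CPM and shares of positive cells in earlier results of the same data, so these levels and ratios are a description and are not set against chance. All 8 were found in both tables.

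The data were single-cell RNA sequencing of tumor-infiltrating immune cells (TIIs), sorted as living CD45.2+ cells from day 14 B16-OVA tumors, a transplanted mouse melanoma that carries ovalbumin. Tumors of B6 mice with the treatment entry PBS gave the control library. Tumors of B6 mice injected intraperitoneally with 10.5 mg of creatine, a store of high-energy phosphate, gave the creatine library, with 4 tumors combined in each. The study's methods give young adult males as the default for its mice. With 1 library a group there was no replicate, no p-value could be given, and a difference between treatments cannot be told apart from a difference between the 2 libraries or their handling.

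Heat shock proteins bind unfolded protein and help it fold, or hand it on for degradation. In resting cells heat shock factor 1 is held inactive by chaperones. When unfolded protein draws those chaperones away, the factor binds heat shock elements, which are inverted repeats of the unit GAA, and switches on a program in which Hspa1a and Hspa1b show the steepest rise. Immune cells also use these proteins in daily work: Hspa8 for folding new chains, Hsp90aa1 for kinases and steroid receptors, and the mitochondrial ring of Hspd1 with its lid Hspe1 for imported proteins. Chaperone transcripts are also known to rise when tissue is warmed or dissociated, which matters for cells taken from a tumor.

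Hspa1a and Hspa1b lie on chromosome 17 (GRCm38, minus strand), Hspa1b from 34956436 to 34959238 and Hspa1a from 34969190 to 34972156, so that 9951 bases separate the genes. Their promoters are shown because the pair moved together and because the copies are so alike. In the promoter table from RefSeq (GRCm38.p6), 296 of the 300 bases around each start site were the same, and the 150 bases before the start differed at 1 position. Capitals mark the pair of inverted units that starts 104 bases before each start site.
Hspa1a, chr17:34972157-34972306, minus strand: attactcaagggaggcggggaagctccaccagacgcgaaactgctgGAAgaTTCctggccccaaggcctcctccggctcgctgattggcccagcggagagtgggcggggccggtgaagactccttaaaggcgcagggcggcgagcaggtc
Hspa1b, chr17:34959239-34959388, minus strand: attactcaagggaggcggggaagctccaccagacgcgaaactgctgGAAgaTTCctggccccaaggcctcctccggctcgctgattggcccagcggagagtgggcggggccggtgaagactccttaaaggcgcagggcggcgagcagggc

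The other promoters with such units are given as short stretches. Hspd1 (chromosome 1, 55077835 to 55088243, minus strand) and Hspe1 (55088132 to 55091307, plus strand) stand head to head and overlap by 112 bases. A run of 4 units, outside that overlap, lies before the RefSeq start site of Hspd1 at 55087932 and before that of Hspe1. That run lies in an exon of an Hspd1 transcript. Hsph1 (chromosome 5, 149614287 to 149636376, minus strand) held a pair of units before its RefSeq start site and a run of 3 units just after it. The gene bounds come from another annotation (GENCODE), by which that pair lies inside the gene. Exons of Hsph1 overlap both stretches shown.
Hspe1 and Hspd1, chr1:55088053-55088082, plus strand: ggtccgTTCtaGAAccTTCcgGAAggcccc
Hsph1, chr5:149636351-149636380, minus strand: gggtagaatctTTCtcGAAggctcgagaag
Hsph1, chr5:149636279-149636308, minus strand: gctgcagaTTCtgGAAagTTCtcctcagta
The search took GAA and TTC, or TTC and GAA, with 2 bases between them on either strand, in windows from 250 bases before to 50 bases after each start site. At least 1 pair was found in 6 of the 9 windows of these genes and in 15.1% of all 32851 windows. A run of 3 units, which contains such pairs, was found in 4 of the 9 windows and in 0.603% of all. These windows are not separate sites. The 2 windows of Hsph1 overlap and hold the same units, Hspd1 and Hspe1 share theirs, and Hspa1a and Hspa1b are near-identical copies. The counts over the 9 windows are therefore larger than the number of separate sites. A run of 4 units was found in 2 of the 9, a window of Hspd1 and that of Hspe1, and in 0.024% of all. The 2 windows of Dnajb1 (chromosome 8, 83608193 to 83612653, plus strand) held no pair, nor did the other Hspd1 window, at start site 55088243. Windows for 6 of the 8 genes were matched, and those of Hsp90aa1 (chromosome 12, 110690605 to 110702728, minus strand) and Hspa8 (chromosome 9, 40800984 to 40810087, plus strand) were not analysed here. A match of letters says nothing on binding in these cells.

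Reads from the 3′ end could be assigned to single members in most cases. Of the 451 stretches of 50 bases in the last 500 bases of the Hspa1a transcript, 0 occurred in Hspa1b or in any other annotated transcript, and the same held for Hspa1b and for 5 further members. Hspa8 was the exception, with 182 of 451 stretches (40.4%) also present in 10 other genes, mostly Gm15459, so that its level is uncertain where reads were split or dropped.

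After the study's filter of at most 25% mitochondrial UMIs, at least 300 UMIs and at least 100 genes, 7241 control cells and 6229 creatine cells remained. A UMI is a molecular tag that counts 1 captured transcript. These cells held 79319769 and 72091124 UMIs, with medians of 7688 and 8475 a cell, and 30 barcodes occurred in both libraries. Ptprc, which encodes the sorted CD45 antigen, had a UMI in 95.6% and 98.4% of cells. Marker gates gave 7 cell types with at least 50 cells in both libraries: CD8 T cell-like (2577 control and 2095 creatine cells), NK cell-like (544 and 924), C1q-high macrophage-like (939 and 311), classical monocyte-like (357 and 585), Treg-like (309 and 191), conventional CD4 T cell-like (181 and 205) and conventional dendritic cell-like (cDC-like, 172 and 90). Another 772 and 606 cells passed no gate and 388 and 218 passed several.

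The inducible pair summed to a lower level in the creatine library in each of the 7 cell types, a direction that turned in Treg-like cells without the top cell of each library (log2 1.38) and in non-dividing NK cell-like and Treg-like cells (0.53 and 2.04), while the other 6 chaperones summed to nearly equal levels. Over all kept cells, Hspa1a and Hspa1b together went from 3597 to 1115 UMIs, or from 45.3 to 15.5 CPM (CPM is the usual scaling of a gene's UMIs by the total UMIs of the same cells). That is a log2 ratio of -1.55 (95% interval -1.65 to -1.45). This all-cell ratio mixes the level within types with the mix of types. C1q-high macrophage-like cells, the type richest in the pair, were 939 of 7241 control cells and 311 of 6229 creatine cells. The part of each was not tested. The 6 others summed to 2480 and 2512 CPM, which is a log2 ratio of 0.02. The intervals are exact and cover counting error only. They are too narrow where few cells hold many of the UMIs, which was the case for the pair.

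A gene was called where it differed by at least 1.5-fold with a counting interval that excluded equal levels and at least 10 UMIs. Hspa1a was called lower in 5 of the 7 types and Hspa1b in 6, and the pair summed was past the same threshold in all 7. Of the 42 values of the other 6 genes, 0 were called, 10 had an interval above 0, 7 below 0 and 25 held 0. Among all genes tested, the share called lower was 4.8% in CD8 T cell-like, 3.67% in NK cell-like, 4.08% in C1q-high macrophage-like, 6.69% in classical monocyte-like, 3.46% in Treg-like, 4.67% in conventional CD4 T cell-like and 5.72% in cDC-like cells, and over all kept cells 5.9%. The share called higher was, in the same order, 3.76%, 2.55%, 2.62%, 5.6%, 5.32%, 3.17% and 6.15%, and 5.14% over all kept cells. Since these genes were chosen with such contrasts known, nothing is read from their count.

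**Figure D1:**
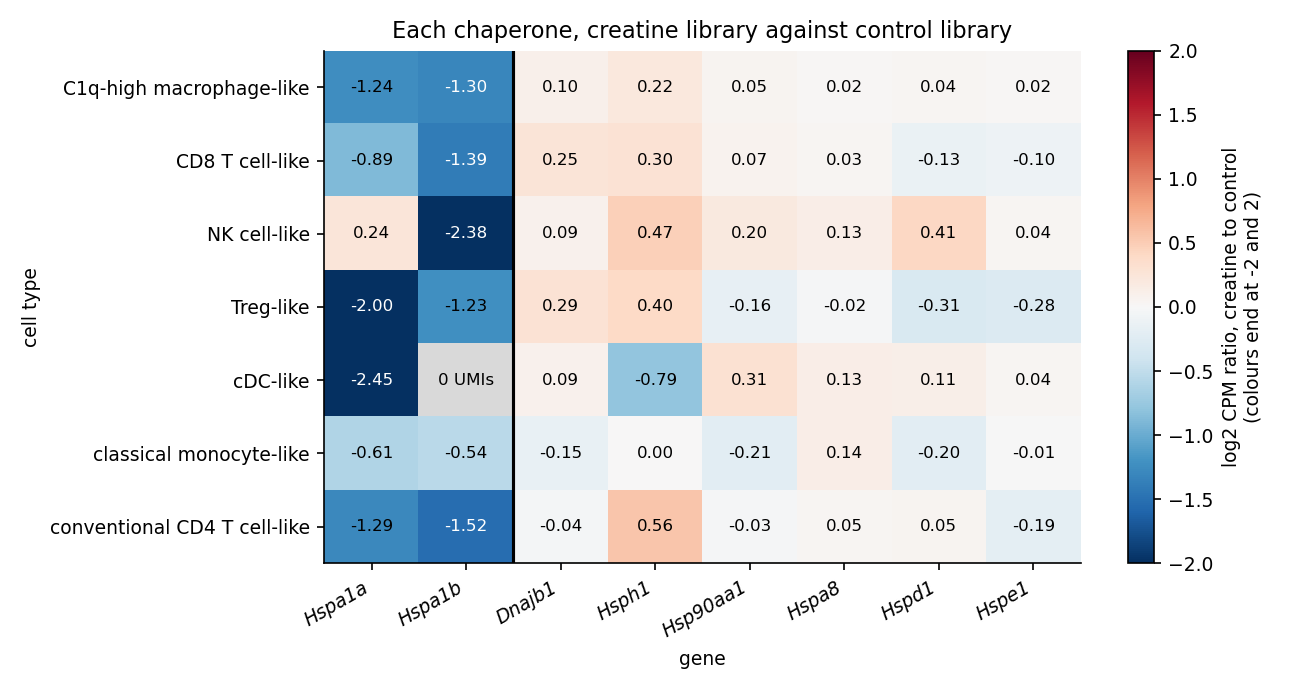
Log2 ratio of CPM, creatine to control library, for each chaperone (columns) in each cell type (rows), with the inducible genes left of the line. The 2 inducible columns are blue except Hspa1a in NK cell-like cells at 0.24, whereas the other 6 columns run from -0.79 (Hsph1 in cDC-like cells) to 0.56 (Hsph1 in conventional CD4 T cell-like cells). The gray field marks Hspa1b in creatine cDC-like cells, with 0 UMIs.

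C1q-high macrophage-like cells, which resemble tissue-resident phagocytes rich in complement transcripts, held the highest level of the pair among the 7 types in both libraries. Control and creatine levels were 78.6 and 33.3 CPM for Hspa1a and 35.6 and 14.4 CPM for Hspa1b. Summed, the pair went from 114 to 47.8 CPM, a log2 ratio of -1.26 (interval -1.43 to -1.09). These cells gave 47.4% of all control pair UMIs and 29.96% of all creatine pair UMIs. The share of C1q-high cells with a UMI of the pair was 13.5% and 10.9%, with intervals that overlapped (11.4 to 15.9% and 7.69 to 14.9%). After each cell was thinned to 2000 UMIs it was 6.24% and 4.61%, again with overlapping intervals. The level thus differed beyond its counting interval in these cells, and the share of positive cells did not. The interval of the level is too narrow, as the top cell held 562 of 1706 control and 97 of 334 creatine pair UMIs. The share with 3 or more pair UMIs was 6.07% (4.63 to 7.79%) and 3.86% (2.01 to 6.64%), with overlapping intervals. Whether the level differed beyond the spread between cells was not tested. Median depth also differed, at 13473 and 19412 UMIs a cell.

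Classical monocyte-like cells, recent arrivals from blood, had the smallest gap of the 7 types for the summed pair. The pair went from 49.5 to 33.0 CPM there, a log2 ratio of -0.59 (interval -0.89 to -0.27), just past the threshold. One creatine cell held 101 of the 201 pair UMIs there, and without the top cell of each library the ratio was -1.09. Monocytes and macrophages that passed only the general gate (138 and 174 cells, outside the 7 types) went from 221 to 11.1 CPM. Nonclassical monocyte-like cells (44 and 103) were at 58.2 and 4.43 CPM, the latter from 4 UMIs.

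In cDC-like cells, which prime T cells, the pair went from 51.6 to 4.79 CPM, the widest gap of the 7 types (log2 -3.43, interval -4.90 to -2.26). The counts behind it were 124 UMIs in 172 cells and 6 UMIs in 90 cells. Hspa1a gave 63 and 6 UMIs. Hspa1b gave 61 and 0 UMIs, which is at least 10.6-fold lower when set against a floor of 3 counts in the creatine cells. The share of cells with a UMI was less far apart, 9.30% and 5.56% (5.41 to 14.7% and 1.83 to 12.5%), and the gap lay in 5 control cells with 3 or more UMIs against 0 of 90 creatine cells (exact upper bound 4.02%). Dividing cell genes also differed here: 15 of 16 were called lower in creatine cDC-like cells (median log2 -1.11, against 0.01 over all genes), and cells with at least 2 such genes made up 63.4% and 44.4%. Among cells with fewer than 2 the log2 ratio of the pair was -1.51, and the part of division in the gap was not otherwise tested.

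The pair was low in CD8 T cell-like and NK cell-like cells. CD8 T cell-like cells, the largest group, were at 12.3 and 5.81 CPM (log2 -1.08, interval -1.34 to -0.83), with Hspa1a at 7.06 and 3.81 CPM and Hspa1b at 5.26 and 2.00 CPM. Here the share of positive cells differed too: 5.01% (4.196 to 5.92%) and 1.91% (1.37 to 2.59%). Thinned to 2000 UMIs a cell, it was 1.75% (1.28 to 2.35%) and 0.627% (0.334 to 1.07%). NK cell-like cells were at 13.6 and 7.94 CPM, from 33 and 45 UMIs (log2 -0.78, interval -1.46 to -0.09), a ratio that turned to 0.53 in non-dividing cells alone. In NK cells the 2 copies gave unlike ratios: Hspa1b had 20 and 9 UMIs (log2 -2.38), and Hspa1a 13 and 36 (log2 0.24, interval -0.71 to 1.28). Only 16 control and 7 creatine NK cell-like cells held the pair, and 1 creatine cell held 15 of the 36 Hspa1a UMIs. With so few cells, no parting of the copies is read from these counts.

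Regulatory T cells and conventional CD4 T cells had too few positive cells for a level. In Treg-like cells 1 control cell held 155 of the 165 pair UMIs, and 10 further control cells held 1 each. In the creatine library 4 such cells held 32, of which 1 held 16 and another 14. The library levels of 64.6 and 20.3 CPM gave a log2 ratio of -1.67, but without the top cell of each library it turned to 1.38. In conventional CD4 T cell-like cells the levels of 31.2 and 11.8 CPM rested on 26 and 14 UMIs, of which 20 and 11 lay in 1 cell each. The direction of the pair in Treg-like cells is therefore that of a single cell.

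**Figure D2:**
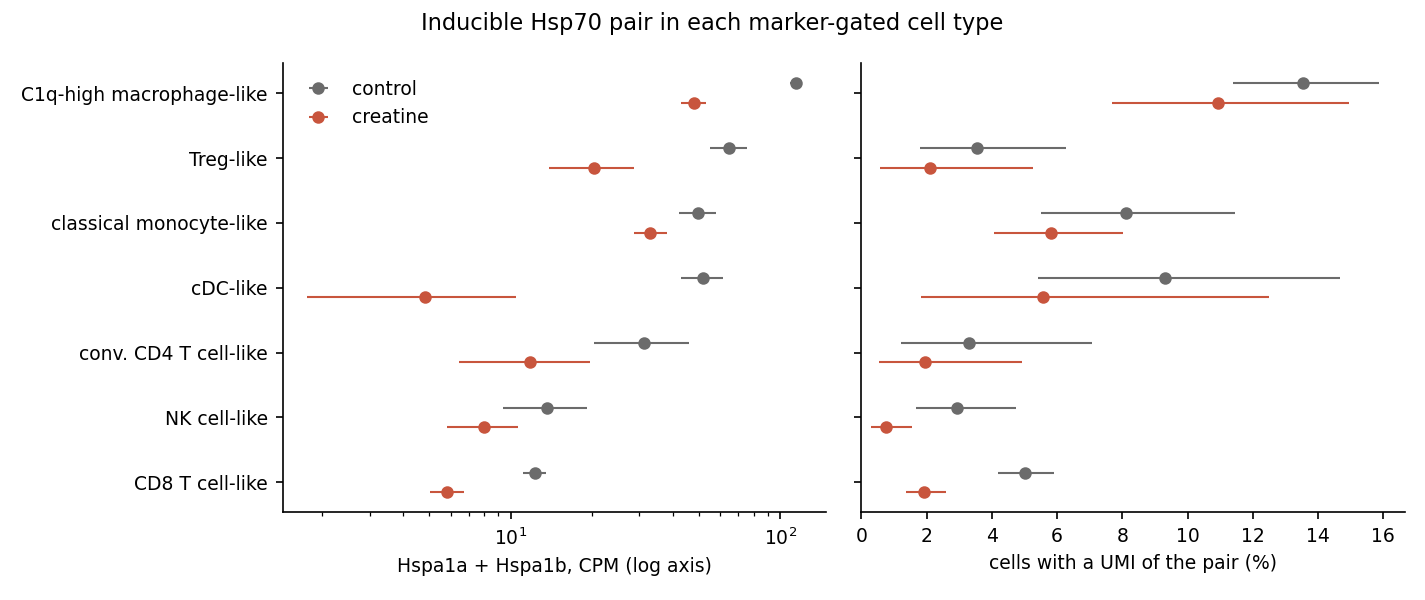
Left, Hspa1a and Hspa1b summed in CPM on a log axis; right, the percent of cells with at least 1 UMI of the pair, for the 7 cell types in the control (gray) and creatine (red) library. Points are the values of 1 library and bars exact 95% counting intervals. C1q-high macrophage-like cells are highest at 114 and 47.8 CPM CD8 T cell-like cells are at 12.3 and 5.81 CPM, cDC-like cells are lowest in the creatine library at 4.79 CPM, and the intervals of the shares overlap in 5 of the 7 types.

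The order of types for the pair, by the mean of both libraries, ran from C1q-high macrophage-like (81.0 CPM) through Treg-like (42.5), classical monocyte-like (41.3), cDC-like (28.2), conventional CD4 T cell-like (21.5) and NK cell-like (10.8) to CD8 T cell-like cells (9.07), an 8.94-fold range. The place of Treg-like cells rests on 1 control cell with 155 of 165 pair UMIs. No neighbours in this order were separated, in the sense that both libraries of one lay above both of the next. No cell type is known to lack these genes, so no type served as a background for free RNA. Among the 7 types the lowest share of positive cells was 0.758%, in creatine NK cell-like cells with a median of 5462 UMIs. In smaller groups 0 of 31 and 0 of 39 B cell-like cells and 0 of 88 creatine gamma-delta T cell-like cells had a UMI of the pair.

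Within a type the pair was held by few cells. In the control library 496 of 7241 cells had a UMI of it, and 268 of these had 1. In the creatine library 202 of 6229 cells had a UMI, and 113 of these had 1. The 22 highest control cells and the 15 highest creatine cells held at least 50% of its UMIs. Cells with 3 or more UMIs, a limit chosen after the data were seen, made up 2.38% (2.04 to 2.75%) of control and 0.979% (0.750 to 1.26%) of creatine cells. Both the number of such cells and the UMIs in the highest of them were lower in the creatine library. These shares over all cells also depend on the mix of cell types, which differed between the libraries.

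The highest cells carried the pair far above the rest. One control C1q-high macrophage-like cell held 326 UMIs of Hspa1a and 236 of Hspa1b among 20421 UMIs, or 27521 CPM of the pair, together with 91 UMIs of Hsp90aa1 and 50 of Hspa8 but 1 of Hsph1 and 2 each of Dnajb1 and Hspd1. Its mitochondrial share was 3.0%, below the median of its type (4.70%). The next control cells were the Treg-like cell with 155 and C1q-high cells with 146, 110 and 105 pair UMIs. In the creatine library the highest were a classical monocyte-like cell with 101, C1q-high cells with 97 and 64 and a melanoma cell-like cell with 40. The mitochondrial share of the 12 highest cells ran from 1.79 to 8.18% in the control and from 1.95 to 9.78% with creatine.

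**Figure D3:**
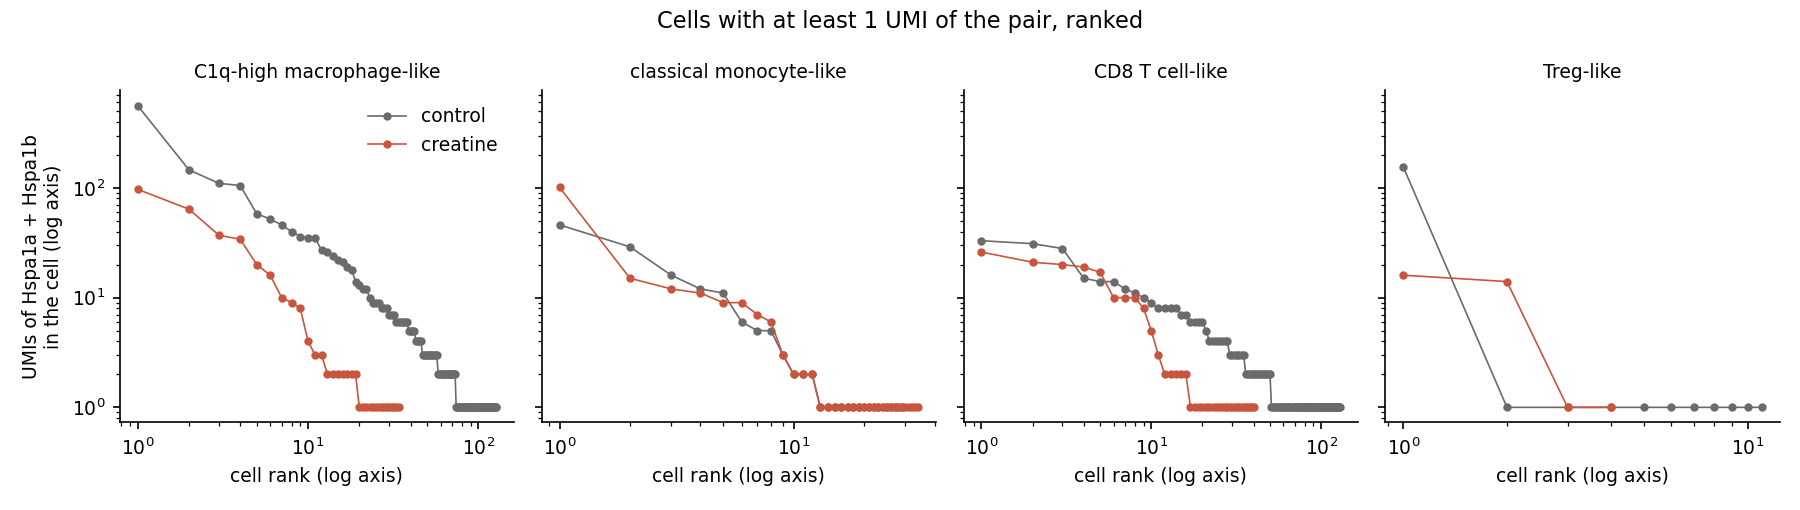
UMIs of Hspa1a and Hspa1b in each cell with at least 1, ranked from high to low on log axes, in 4 cell types of the control (gray) and creatine (red) library. At no rank do the 127 positive control C1q-high macrophage-like cells, which start at 562 UMIs, lie below the 34 creatine cells, which start at 97, though 939 and 311 cells were ranked over. In Treg-like cells 1 control cell with 155 UMIs stands above 10 cells with 1.

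The 2 copies went together within cells. Hspa1a made up 64.1% of control and 66.5% of creatine pair UMIs, with overlapping intervals (62.5 to 65.6% and 63.7 to 69.3%). Of cells with a UMI of Hspa1b, 54.3% and 47.6% also held Hspa1a, against 2.98% and 1.62% of cells without one. Across the 14 values of type by library the copies correlated with Pearson's r = 0.83, a description over points that share libraries and depth.

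Clusters drawn without any chaperone gene gave a lower pair in the creatine library in all but 1 of those compared, although several intervals held 0. In the main C1q-high cluster (558 and 254 cells) the pair went from 110 to 42.7 CPM, and in the cDC cluster (250 and 130) from 50.1 to 4.95 CPM. NK cells fell into clusters that differed: in the largest (581 and 728 cells) the pair went from 10.96 to 3.36 CPM, but in another (114 and 149) it was 60.1 and 55.3 CPM, a log2 ratio of -0.12 (interval -0.86 to 0.64). The largest CD8 T cell cluster (791 and 514 cells) was at 11.4 and 10.95 CPM (log2 -0.06, interval -0.57 to 0.44), while another (359 and 430) went from 15.03 to 1.48 CPM. In the smaller Treg cluster (127 and 51 cells) the pair was higher in the creatine library, 22.6 against 8.62 CPM, from 21 UMIs each.

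The co-chaperones Dnajb1 and Hsph1 were low in all cells. Dnajb1, an Hsp40 that loads clients onto Hsp70, ran from 31.3 to 57.7 CPM over control types and from 33.6 to 66.6 over creatine types. It was highest in Treg-like (54.4 and 66.6 CPM) and conventional CD4 T cell-like cells (57.7 and 56.2) and lowest, by the mean of both libraries, in C1q-high macrophage-like cells (31.3 and 33.6), which were not separated from cDC-like cells (31.6 and 33.6). Between libraries its largest differences were log2 0.29 in Treg-like cells, with an interval that held 0, and 0.25 in CD8 T cell-like cells (interval 0.15 to 0.36).

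Hsph1, the Hsp110 that exchanges the nucleotide of Hsp70, was highest in CD8 T cell-like cells (32.1 and 39.4 CPM) and lowest, by the mean of both libraries, in classical monocyte-like cells (10.2 in both, against 16.6 and 9.59 in cDC-like cells), a 3.52-fold range that was the widest of the 6. CD8 T cell-like cells lay above every other type in both libraries. Its log2 ratio was 0.32 over all kept cells (interval 0.23 to 0.41) and 0.30 in CD8 T cell-like cells (0.18 to 0.42), the reverse of the pair. In cDC-like cells it was -0.79, from 40 and 12 UMIs, with an interval of -1.86 to 0.16.

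Hsp90aa1, the stress-responsive cytosolic Hsp90, exceeded the pair in every type and library. It led in CD8 T cell-like cells with 577 and 605 CPM, followed by Treg-like cells with 566 and 505, and was lowest, by the mean of both, in NK cell-like cells with 292 and 336, not separated from classical monocyte-like cells with 343 and 297. Between libraries it was higher in creatine cDC-like cells, 377 to 466 CPM (log2 0.31, interval 0.15 to 0.46), and lower in classical monocyte-like cells, 343 to 297 CPM (-0.21, interval -0.32 to -0.10). Both lay under the 1.5-fold threshold.

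Hspa8, the constitutive Hsp70, was the most abundant member in every type. Its control and creatine levels were 1712 and 1879 CPM in cDC-like, 1675 and 1845 in classical monocyte-like, 1401 and 1434 in CD8 T cell-like, 1416 and 1399 in Treg-like, 1218 and 1235 in C1q-high macrophage-like, 1009 and 1108 in NK cell-like and 1000 and 1032 in conventional CD4 T cell-like cells. The range from highest to lowest mean was 1.77-fold, the narrowest of the 8 genes. The share of reads it loses or gains through its copies is unknown.

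The mitochondrial chaperonin pair was highest in CD8 T cell-like cells. Hspd1 (Hsp60) was at 270 and 247 CPM there, against 103 and 89.3 in classical monocyte-like cells, the lowest type. Hspe1 (Hsp10), its lid, was at 423 and 396 CPM in CD8 T cell-like and at 215 and 213 in classical monocyte-like cells. In each case CD8 T cell-like cells lay above all others in both libraries. Between libraries Hspd1 was higher in creatine NK cell-like cells, 118 to 157 CPM (log2 0.41, interval 0.22 to 0.61), and lower in Treg-like cells, 186 to 150 (-0.31, interval -0.54 to -0.08). Hspe1 was lower in Treg-like cells too, 291 to 240 CPM (-0.28, interval -0.46 to -0.10). In CD8 T cell-like cells both were slightly lower, by log2 -0.13 and -0.10. Because each transcript gives 1 tag at its 3′ end, counts do not grow with transcript length, but capture may still differ between genes.

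**Figure D4:**
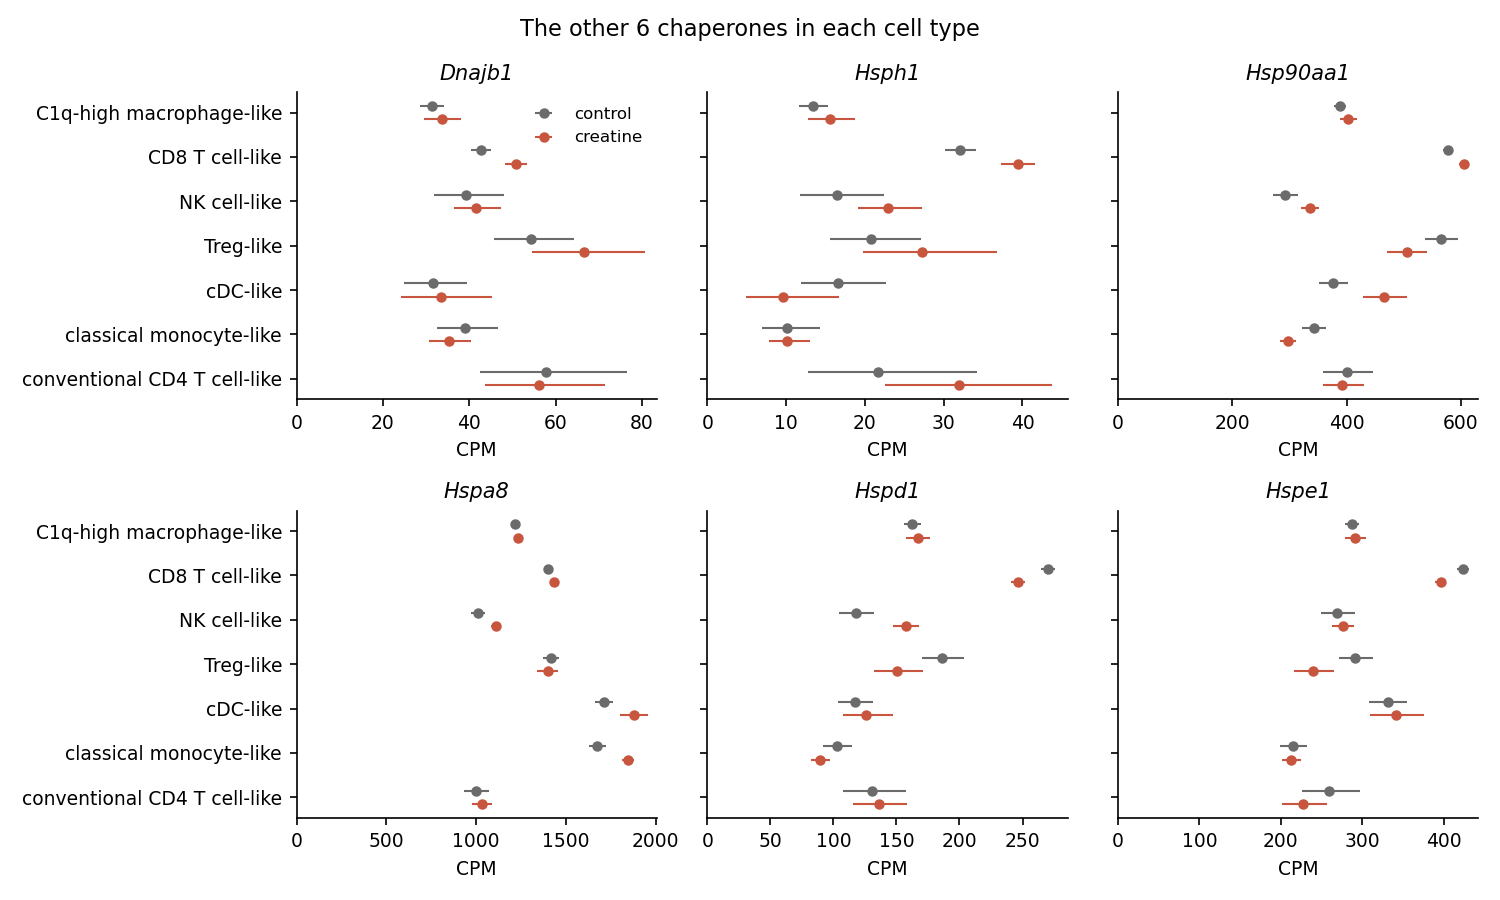
CPM of Dnajb1, Hsph1, Hsp90aa1, Hspa8, Hspd1 and Hspe1 in 7 cell types of the control (gray) and creatine (red) library, each axis starting at 0, with exact 95% counting intervals. Hsph1, Hsp90aa1, Hspd1 and Hspe1 are highest in CD8 T cell-like cells (for Hspd1 270 and 247 CPM), Hspa8 in cDC-like cells (1712 and 1879 CPM), and the libraries lie close to each other.

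In cells that carried the inducible pair, part of the other chaperones were high with it. The 84 control and 22 creatine monocytes and macrophages with 3 or more pair UMIs were set against the other cells of the same gates and library. For control cells Hsp90aa1 was at 929 against 351 CPM (log2 1.40), and for creatine cells at 1061 against 327 CPM (1.70, interval 1.53 to 1.86). Hsph1 was at 40.9 against 11.5 and 136 against 11.2 CPM (1.84 and 3.60). Dnajb1 was at 58.7 against 32.6 and 66.5 against 34.9 CPM (0.85 and 0.93).

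The remaining members did not follow in the same way. Hspa8 differed by log2 0.06 among control cells, with an interval that held 0, and by 0.34 among creatine cells. Hspd1 was lower in the control cells with the pair, 106 against 149 CPM (-0.49, interval -0.80 to -0.21), and higher in the creatine cells, 199 against 120 CPM (0.73, interval 0.35 to 1.10). Hspe1 was at -0.04 and 0.38. Hsp90aa1, Hsph1 and Dnajb1 thus went with the pair in both libraries, and the mitochondrial pair did not. In the creatine library Hspd1 was at 167 CPM in C1q-high macrophage-like and 89.3 CPM in classical monocyte-like cells. The mix of pooled types may therefore enter these ratios, and its part was not tested. For scale, the median log2 over 12109 and 11708 genes was -0.27 and -0.21, 4.6% and 4.76% of genes were called higher, and 12.3% and 8.99% lower.

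Further genes with heat shock factor sites, named here after their values were seen, were also higher with the pair: Bag3, which hands Hsp70 clients to autophagy (51.4 against 20.5 and 72.8 against 21.1 CPM), Dnajb4 (34.6 against 10.6 and 34.8 against 8.12), Dnaja1 (240 against 147 and 358 against 187) and, under the 1.5-fold threshold and in the creatine library alone, Hsp90ab1 (log2 0.03 and 0.53). Chordc1, an Hsp90 partner with such sites, was not (-0.77 and -0.30, the latter with an interval that held 0). Hspa5, the chaperone of the endoplasmic reticulum, was higher by 0.69 and 0.66, and the early stress genes Atf3 (831 against 190 and 893 against 151 CPM) and Jun (887 against 321 and 839 against 300 CPM) were higher as well.

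The T cells with 3 or more pair UMIs (46 control and 18 creatine cells, gamma-delta T cells left out) showed a like set. Hsp90aa1 was at 946 against 559 CPM (log2 0.76) for control and 1246 against 568 CPM (1.13) for creatine cells. Dnajb1 was higher by 0.97 and 1.20 and Hsph1 by 0.85 and 1.18. Hspa8 was also higher, by 0.37 and 0.72, and Hspe1 by 0.42 and 0.54, whereas Hspd1 was at -0.09, with an interval that held 0, and 0.38. The medians over 13308 and 13076 genes were -0.10 and 0.02, 2.77% and 2.92% of genes were called higher, and 6.25% and 3.27% lower. Jun was again far higher, 215 against 27.6 and 189 against 39.7 CPM. Bag3 rested on 4 and 2 UMIs and cannot be read.

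Cells with the pair also differed in other measured ways. The T cells with it were deeper than the rest (median 11294 against 8142 UMIs for control and 16166 against 9461 for creatine cells). In monocytes and macrophages the medians were 8918 against 10256 and 11288 against 9964. Their median mitochondrial share was 4.48% against 4.36% and 3.44% against 3.83%. The 6 markers of Ccr7+ dendritic cells summed to 157 CPM in the 35 control CD8 T cell-like cells with the pair, with 5 of 6 present, against 32.8 CPM in those with no pair UMI, with all 6 present. In the creatine library they were at 10.3 against 17.5 CPM, and the 8 general macrophage markers in the control cells were at 78.6 against 86.7. The 6 C1q-high macrophage markers were at 140 against 148 CPM in these control cells, and at 108 against 64.0 CPM in the 11 creatine cells with the pair, with 4 of 6 present. The 5 melanoma markers in C1q-high cells with the pair were at 91.9 against 61.9 CPM in the control, with 4 of 5 present, and at 109 against 57.7 in the creatine library. The part of these values in the pair's level was not tested.

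**Figure D5:**
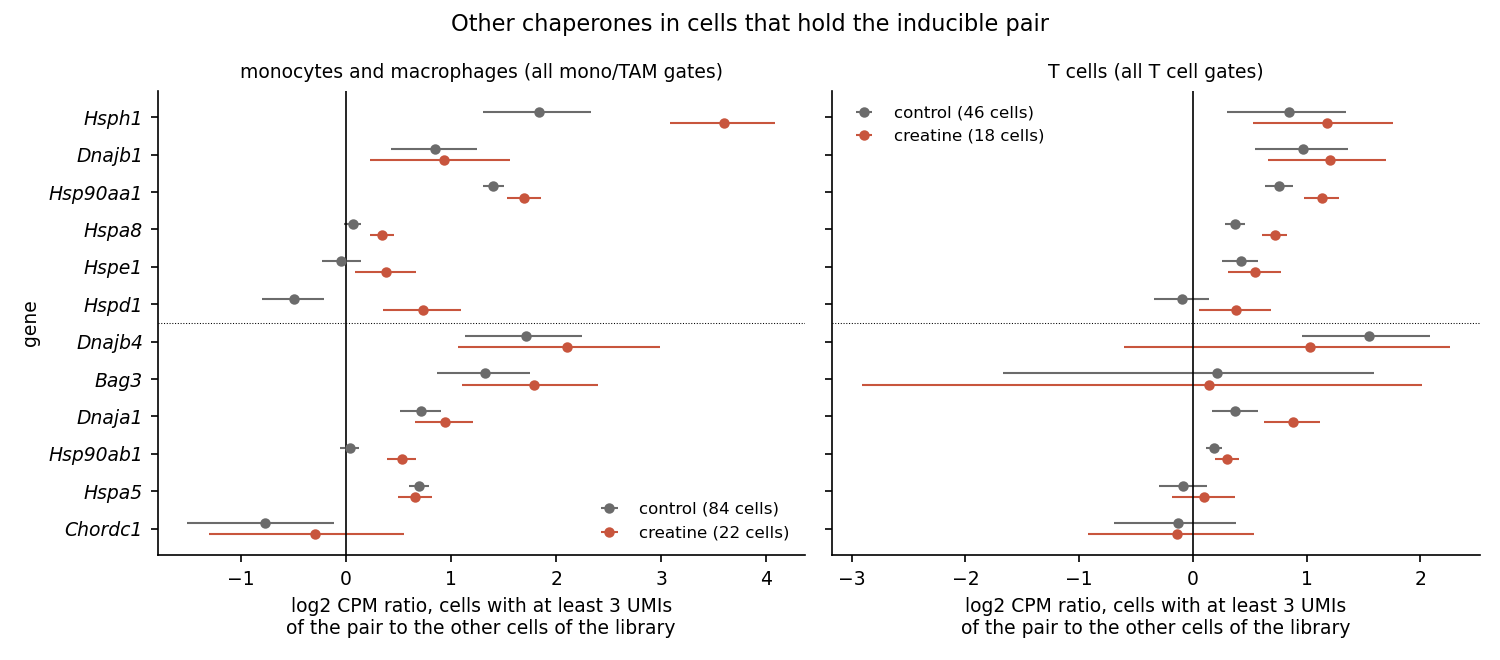
Log2 ratio of CPM between cells with at least 3 UMIs of the inducible pair and the other cells of the same library, for monocytes and macrophages (left) and T cells (right), control in gray and creatine in red, with exact 95% counting intervals. Above the dotted line are the 6 members, below it other chaperones and co-chaperones. In monocytes and macrophages Hsph1 (1.84 and 3.60), Hsp90aa1 (1.40 and 1.70) and Dnajb1 (0.85 and 0.93) lie to the right of 0 in both libraries, whereas Hspd1 lies at -0.49 and 0.73.

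A second axis, cell division, sorted the members differently. Dividing cells were taken here as those with UMIs of at least 6 of 16 dividing cell genes, a limit chosen after the data were seen. Of the 16, Hist1h2ap was itself lower in the creatine library over all kept cells (119171 to 25337 UMIs, log2 -2.10). Rules built on this list may therefore not pick like cells in both libraries. In CD8 T cell-like cells (1100 dividing and 1477 other control cells, 864 and 1231 creatine cells) Hsp90aa1 was at 721 against 284 CPM among control cells (log2 1.35) and at 763 against 314 CPM among creatine cells (1.28). Hspd1 was at 332 against 145 (1.20) and 296 against 155 CPM (0.93). Both were past the threshold in both libraries, as were 14.3% and 14.7% of all genes tested, while 13.7% and 13% were called lower. Hspa8, Hspe1, Dnajb1 and Hsph1 were higher by 0.18 to 0.42, under the threshold. The pair was at 11.8 against 13.4 and 6.13 against 5.24 CPM, with intervals that held 0 (log2 -0.49 to 0.11 and -0.23 to 0.70). Dividing cells were deeper by this rule (median 18057 against 7002 and 21829 against 8434 UMIs).

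In C1q-high macrophage-like cells the pair was low where cells divided. The pair was at 27.7 CPM in 244 dividing control cells against 176 CPM in 695 others (log2 -2.67), and at 17.9 against 69.1 CPM in 77 and 234 creatine cells (-1.95). The control cell with 562 of the 1706 pair UMIs had 4 dividing cell genes, so it was among the others and raised their level. Of all genes tested, 4.79% and 5.48% were called lower and 11.1% and 10.8% higher. Dividing cells were deeper here too (median 25029 against 11276 and 35599 against 15518 UMIs). Hsp90aa1 was at log2 0.04 and -0.04, with intervals that held 0, and Hspd1 was higher in dividing cells by 0.50 and 0.40. The control cDC-like cells went the same way for the pair, 7.44 CPM in 43 dividing cells against 79.9 CPM in 129 others. In Treg-like cells Hsp90aa1 was higher in dividing cells by 1.45 and 0.89 and Hspd1 by 1.56 and 0.53. The pair in Treg-like cells is not read here, as 1 cell held most of it.

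The wider chaperone system had a median ratio between libraries near that of all genes. Of 57 listed chaperones and co-chaperones other than the 8, 56 had at least 10 UMIs over both libraries. Their median log2 ratio over all kept cells was -0.02, against 0.01 over all genes. Intervals lay below 0 for 39.3% and above 0 for 30.4% of the 56, against 22.9% and 26.2% of all genes. Among all genes 5.14% were called higher and 5.9% lower. Called higher over all kept cells was Serpinh1, a collagen chaperone (2.47 to 3.76 CPM, 0.61), and called lower were the small heat shock proteins Hspb1 (109 to 13 UMIs, -2.93) and Hspb6 (-0.60). Against 3.76% and 4.8% of all genes, 0 of the 53 measured in CD8 T cell-like cells were called higher and 1 lower. That gene was Dnajb4, an inducible Hsp40, at 17.2 and 7.69 CPM (log2 -1.17, interval -1.39 to -0.95). Hspa13 and Hspa4l, both Hsp70 relatives, had the highest ratios there, at 0.34 and 0.31.

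Of 54 in C1q-high macrophage-like cells 0 were called higher and 3 lower, against 2.62% and 4.08% of all genes. Hspb1, a small heat shock protein that holds unfolded clients, went from 91 UMIs to 1 (6.10 to 0.143 CPM, log2 -5.41 with an interval of -10.73 to -2.90). Cryab, another small heat shock protein, went from 5.43 to 3.29 CPM. Fkbp5, an Hsp90 co-chaperone of steroid receptors whose gene glucocorticoids induce, went from 32.3 to 13.3 CPM (log2 -1.28, interval -1.62 to -0.96). Fkbp5 was also called lower in classical monocyte-like (44.1 to 11.2 CPM, -1.98), conventional CD4 T cell-like (55.3 to 31.1 CPM, -0.83) and cDC-like cells (29.9 to 9.59 CPM, -1.64). Chordc1, Hspa4l and Cacybp were higher in C1q-high cells by 0.36 to 0.42, under the threshold.

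In NK cell-like cells, where 2.55% of all genes were called higher and 3.67% lower, 0 of 51 listed chaperones were called in either direction. Their median was 0.11, against 0.03 over all genes. Their highest were the Hsp90 co-chaperones Fkbp4 (log2 0.49) and Stip1 (0.48) and the chaperonin subunit Cct8 (0.43). In Treg-like cells 0 of 51 were called either way, with Hspa5 highest (0.35) and Stip1 lowest (-0.55). In cDC-like cells Dnaja2 was called higher (96.9 to 146 CPM, 0.59) and Fkbp5 lower. In classical monocyte-like cells Hspa2 was called higher (5.71 to 14.0 CPM, 1.29) and Fkbp5 lower. In conventional CD4 T cell-like cells Trap1, Fkbp5 and Ahsa1 were called lower and 0 higher. The shares of all genes called in each type are given above, and nothing is read from these counts.

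Of 17 genes with heat shock factor sites, 13 to 16 of which were measured in a type, the medians were 0.03 in CD8 T cell-like, -0.03 in C1q-high macrophage-like, 0.25 in NK cell-like, 0.03 in classical monocyte-like, -0.08 in Treg-like, -0.09 in conventional CD4 T cell-like and 0.09 in cDC-like cells, so that the list did not share the fall of the pair. The 14 endoplasmic reticulum stress genes had medians from -0.19 in cDC-like to 0.19 in NK cell-like cells. The 15 immediate early genes moved in both directions, and the shares of all genes called in each type are given above. Over all kept cells 5 were called higher, among them Klf2 (log2 1.22), Nr4a1 (1.18) and Ier2 (0.63), and 2 lower, Ier3 (-0.74) and Atf3 (-0.59). Their medians were 0.29 in CD8 T cell-like, 0.42 in NK cell-like, 0.34 in classical monocyte-like, 0.61 in Treg-like, 0.43 in conventional CD4 T cell-like, 0.48 in cDC-like and -0.05 in C1q-high macrophage-like cells. The counts called higher and lower were 2 and 1 in CD8 T cell-like, 4 and 0 in NK cell-like, 0 and 1 in C1q-high macrophage-like, 5 and 1 in classical monocyte-like, 8 and 1 in Treg-like, 5 and 0 in conventional CD4 T cell-like and 5 and 0 in cDC-like cells. The 13 T cell checkpoint and memory genes had medians from -0.52 in NK cell-like to 0.15 in CD8 T cell-like cells, and the 16 dividing cell genes from -1.11 in cDC-like to 0.23 in conventional CD4 T cell-like cells.

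Likeness across the 14 values of type by library was taken as Pearson's r of log2(CPM + 1) over 8150 genes, a description, as the values share libraries and depth. Nearest to the pair were Ecm1 (r = 0.84), 2310011J03Rik (0.83) and Fez2 (0.82). Nearest to Dnajb1 was Syt11 (0.97), to Hsph1 Tsr3 (0.94), to Hsp90aa1 Srrt (0.96), to Hspa8 Psma7 (0.95), to Hspd1 Ncbp2 (0.94) and to Hspe1 Rrp15 (0.94). Among the members outside the inducible pair Hsp90aa1 and Hspd1 were most alike (0.81), then Hspd1 and Hspe1 (0.75). The pair ran from -0.39 with Hsph1 to 0.05 with Hspa8. Hspa8 also had low or negative values, from -0.48 with Hsph1 to 0.16 with Hsp90aa1.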

How the data were processed

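TIIs were sorted as DAPI- CD45.2+ cells from day 14 B16-OVA tumors, 4 tumors combined a group, and 10000 cells a group were loaded on the Chromium platform (3′ kit v2). Tumors had been passed through a mesh and spun on Percoll before the sort. The authors deposited raw UMI counts per gene and cell, from Cell Ranger 3.0.2 and mm10 per the labels. They also merged and normalized the libraries, which was not used here. The label of the control's treatment protocol repeats the creatine injection. Its title (nontreated) and its treatment entry (PBS) were followed instead, and they leave unclear whether the control mice were injected with PBS.

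Cells with at most 25% UMIs of 13 mitochondrial genes, 300 or more UMIs and 100 or more genes were kept. A cell type was the single set of marker genes a cell passed. Cells that passed several were left out as possible doublets, and no others were removed in the main analysis. UMIs were summed per type and library and divided by the type's total (CPM). Intervals were exact Poisson for levels, Clopper-Pearson for shares and conditional binomial for ratios, at 95%, and covered counting error only. Where a few cells hold most UMIs they are too narrow. With 1 library a group no test was run. Cells were thinned to 2000 UMIs for shares, with shallower cells left out. TMM factors came from edgeR 4.0.16 in R 4.3.3. Python 3.11.15, scanpy 1.11.5 and scipy 1.17.1 were used, and the ratio code was tested on simulated data. Promoters were from RefSeq (GRCm38.p6) and gene positions from GENCODE vM21.

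The members and lists were chosen with earlier results of these data known. Genes of the other lists named for their ratio between libraries were among the 3 highest or 3 lowest of their list in a type. These had 50 or more UMIs and an interval that excluded 0, and not all of them are given. For likeness, the named genes were among the 3 with the highest correlation. The splits at 3 pair UMIs and at 6 dividing cell genes, and the ratios without the top cell, were chosen after the data were seen.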

Additional observations from a re-analysis of the deposited data

Results flagged for a closer look

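Melanoma cell-like cells, which passed the CD45.2+ sort in small number and enter no comparison, carried the pair at 153 CPM in the creatine library, from 67 UMIs in 12 cells, and at 5.62 CPM in the control library, from 2 UMIs in 20 cells. One creatine cell held 40 of the 67 UMIs. That cell had 7776 UMIs, against a median of 24352.5 in its group, and a doublet score (Scrublet) at percentile 97.0 of its library. Whether it was a doublet was not tested. The value was singled out because the signal lies in cells outside the 7 types compared and above the control level. The direction is the opposite of the summed ratio in the 7 types, of which that in Treg-like cells rested on 1 cell. The difference was not tested. The other 6 chaperones summed to 4923 and 6252 CPM in these cells, above every immune type.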

How the results depend on the processing

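No paired analysis was possible because each group had 1 library. For the pair over all kept cells, the log2 ratio of -1.55 was -1.45 with equal weight for each cell, -1.78 in cells with fewer than 6 dividing cell genes and -1.44 without the top cell of each library. In CD8 T cell-like cells the same first 2 settings gave -1.36 each and non-dividing cells alone -2.68. Non-dividing cells alone gave 0.53 in NK cell-like (reversed), -0.70 in C1q-high macrophage-like and -1.51 in cDC-like cells. Equal weight gave -1.07 in C1q-high macrophage-like cells, and leaving out the top cells -1.09 in classical monocyte-like cells. In conventional CD4 T cell-like cells, types from clusters gave -4.26 and cells with fewer than 6 dividing cell genes -3.51.

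In Treg-like cells, where 1 control cell held 155 of 165 UMIs, the ratio of -1.67 was -0.88 with types from clusters and -0.61 with equal weight, and it reversed to 2.04 in non-dividing cells, 2.37 in cells with fewer than 6 dividing cell genes and 1.38 without the top cells. Hspa1a there turned to 1.21, 1.64 and 0.50 under these 3 settings, and Hspa1b to 4.13 and 2.86 under the last 2. For the 6 others summed over all kept cells, 0.02 became -0.0021 without mitochondrial and ribosomal protein genes, 0.0310 with equal weight, 0.0865 in non-dividing cells and 0.0885 in cells with fewer than 6 dividing cell genes. TMM scaling, a stricter cell filter and leaving out the 6% of cells with the highest Scrublet scores moved none of these summed ratios beyond its interval. The causes were not tested. Depth limits the pair in NK, CD4 T and cDC-like cells, with at most 45 UMIs in the creatine library.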
